A study of Macaca mulatta with 6 samples.

Results

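Genes of the enzymes that write and erase marks on histones and DNA were followed in rhesus monkeys (Macaca mulatta) that had received morphine or saline. The cells were labelled as cortical neurons. The set was given as 59 gene symbols, chosen by enzyme class, and a symbol entered when it matched a gene of the table with a mean of at least 10 normalized counts over the 6 libraries. Of the 59 symbols, 57 matched, and each of the 57 passed that minimum, out of 16595 genes that passed it among 23191 in the table. HDAC8 and KAT2A were not analysed here. The rule names enzyme classes and a minimum level and uses no measured difference between the groups. The members themselves were chosen with earlier results of these data known.

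Polyadenylated RNA of cells labelled as neurons isolated from cortex was sequenced in 3 libraries labelled morphine and 3 labelled saline. The monkeys were male and 3 to 4 years old. The morphine animals received injections under the skin 3 times daily over 90 days, at 3 mg/kg to begin with and at 15 mg/kg from day 29, and the controls received the same volume of saline. The labels list 2 monkeys per group, 4 in all, and no other allele or agent. With 2 monkeys for 3 libraries, at least 2 libraries of a group share an animal, and 1 code in the descriptions covers every library of a group. The p-values below treat libraries as independent, which makes them too small for a statement about animals, and treatment cannot be told apart from differences between animals. The design text states that the study examined chromatin architecture after long morphine exposure.

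DNA methyltransferases place methyl groups on cytosine, and TET enzymes oxidize them. Histone methyltransferases modify single lysines: H3K4 methylation marks promoters and enhancers, H3K9 methylation heterochromatin, H3K27 methylation genes silenced by Polycomb, and H3K36 and H3K79 methylation transcribed genes. Acetyltransferases and deacetylases add and remove acetyl groups, and in cortical neurons deacetylases also follow activity, since class IIa members move between cytoplasm and nucleus.

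Of the 57 enzymes, 13 rose and 5 fell with morphine, at an adjusted p under 0.05 in limma, a linear model of log2(normalized count + 1) fitted to the whole table. That is 31.6% of the enzymes, near the 27.9% called among all 16595 genes. In a separate fit of genes with a mean of at least 50, a minimum that each enzyme also passed, 20 of the 57 enzymes (35.1%) and 35.8% of all genes were called. By direction, 22.8% of the enzymes rose where 12.9% of all genes did, and 8.77% fell where 15.0% of all genes did. The median log2 fold change was 0.12 over the 57 enzymes and 0.01 over all tested genes. The estimate was above 0 for 39 enzymes and below 0 for 18. The changes were small: among called enzymes the absolute log2 fold change ran from 0.18 in HDAC2 to 0.76 in HDAC4. Its median was 0.32, against 0.49 over all called genes. The enzymes also had a higher level, with a median of 1986 normalized counts against 584 over all tested genes. Their median SD within groups on the log2 scale was 0.0889, against 0.140, so smaller changes can pass among them.

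**Figure D1:**
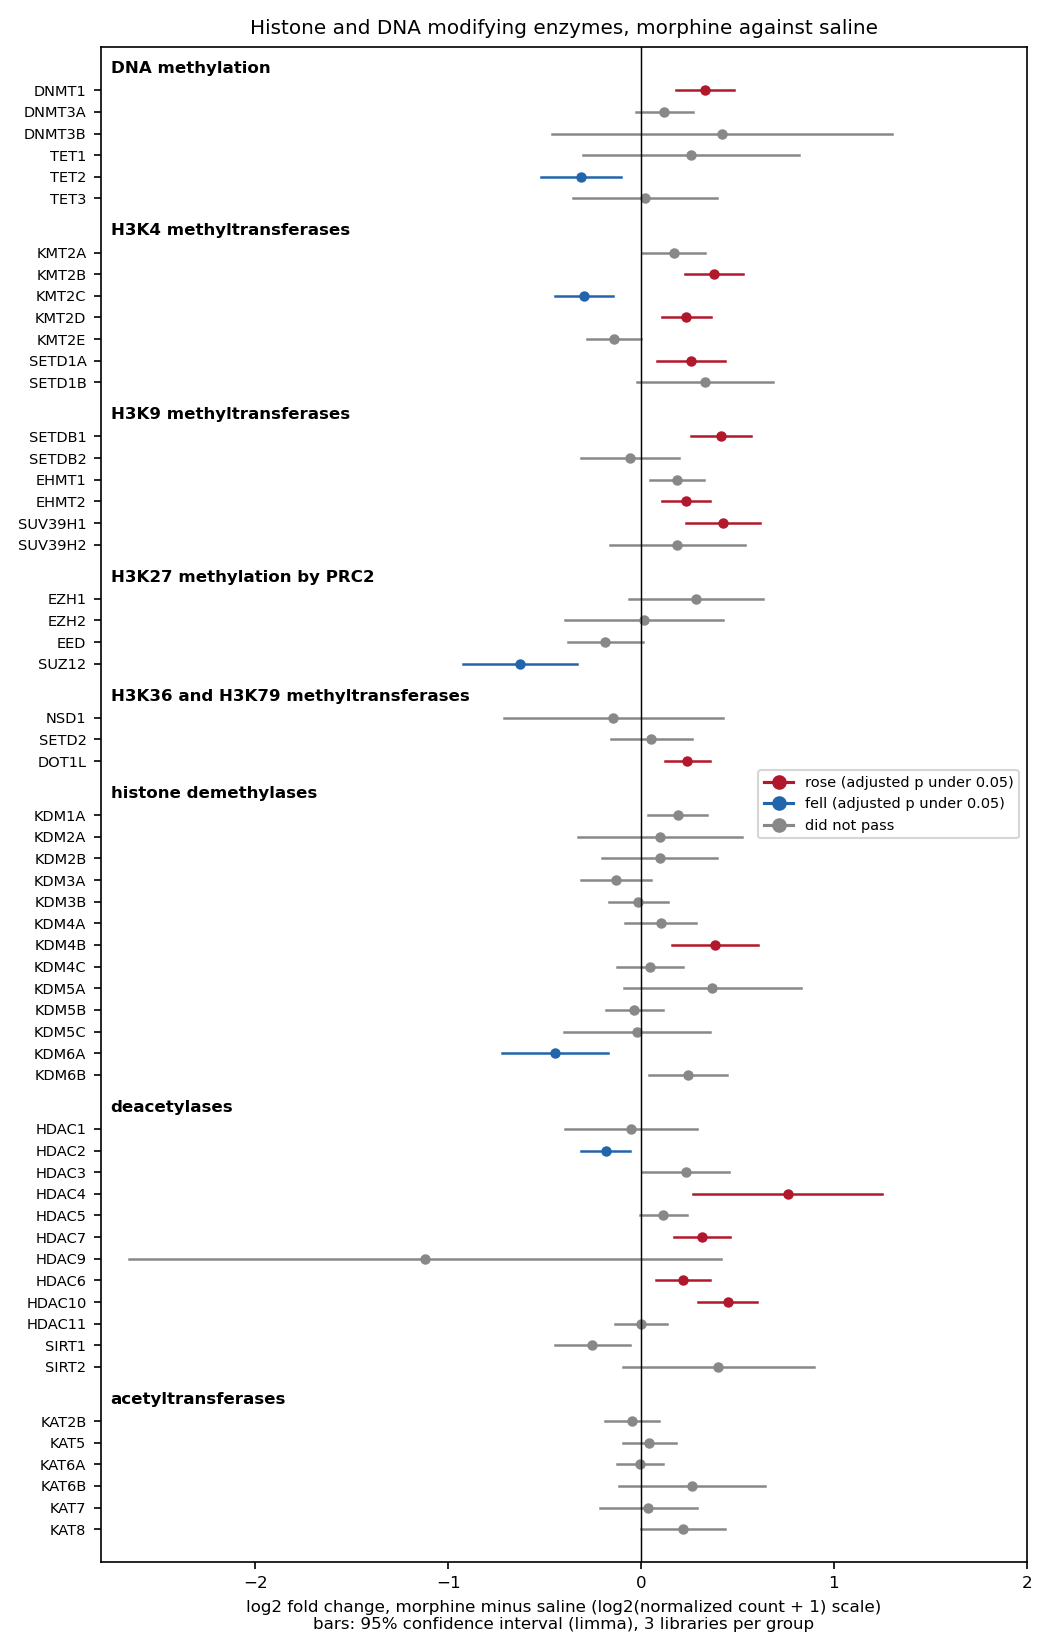
Log2 fold change of each of the 57 enzymes, morphine minus saline, with bars for the 95% confidence interval from limma (3 libraries per group), grouped by class. The 13 enzymes in red rose, the 5 in blue fell, and the 39 in grey did not pass. HDAC9 has the widest interval.

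Markers of several cell types differed between the same libraries. Each of 12 neuronal markers was detected, which says nothing about purity, and markers of astrocytes, microglia, oligodendrocytes and vessels were detected too. No matched marker was at 0 in every library. Glial genes reached high levels although the label gives neurons: the myelin gene MBP averaged 202716 normalized counts with morphine and 192902 with saline, and the astrocyte transporter gene SLC1A3 82480 and 123564. Of the 12 neuronal markers 6 fell, 1 rose (RBFOX3, log2 fold change 0.22) and 5 were not called (-0.17 to 0.04). The summed level of the 12 was 337919 to 338340 normalized counts with morphine and 403051 to 410400 with saline. Abundant genes weigh most in this and the following sums. SNAP25, for example, averaged 69525 normalized counts with morphine and 101045 with saline. Of 7 astrocyte markers 5 fell and 1 rose (sums of 223261 to 225917 against 277630 to 282305), and of 6 microglia markers 4 rose and 2 fell (7533 to 8034 against 5185 to 5505). Of 6 oligodendrocyte markers 2 rose and 2 fell (264244 to 266579 against 258623 to 263280). Of 4 precursor markers 2 rose (10184 to 10429 against 8325 to 8563). Of 8 genes listed as endothelial and mural 3 rose and 3 fell (9891 to 10311 against 11128 to 11289). Those that fell were PECAM1, FLT1 and RGS5, with log2 fold changes of -0.52, -0.61 and -0.68. Those that rose were ACTA2 (0.78) and the collagen genes COL1A1 (3.54) and COL1A2 (2.34). The part of these shifts in the enzyme results was not tested, and in bulk libraries fewer cells of a type and less RNA per cell cannot be told apart. Depth was 31238653 to 36345095 reads per library.

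Among the enzymes of DNA methylation 1 rose and 1 fell of 6. DNMT1 (ENSMMUG00000014604), which copies methylation onto newly made DNA, had 2482, 2496 and 2526 normalized counts with morphine (replicates 1, 2 and 3, the order kept throughout) and 1874, 2005 and 2091 with saline. The groups did not overlap, and the means were 2501 ± 22.7 and 1990 ± 109 (SD, n = 3 libraries per group, as for every mean below). DNMT1 rose by 0.33 ± 0.0596 (SE) on the log2 scale, with a limma adjusted p of 0.0162. TET2 (ENSMMUG00000017831), an oxidase of methylcytosine, had 1426, 1259 and 1402 normalized counts with morphine and 1638, 1823 and 1607 with saline. It fell by 0.31 ± 0.082 on the log2 scale (adjusted p = 0.0445 in limma), and its groups did not overlap. The ratio of DNMT1 to TET2 reads within a library, which does not depend on how libraries are scaled, was 1.74, 1.98 and 1.80 with morphine and 1.14, 1.10 and 1.30 with saline. This and the later ratios were formed after the values had been seen and are given without a test.

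The de novo methyltransferase gene DNMT3A, which is active in neurons after birth, had 1492, 1589 and 1555 normalized counts with morphine and 1359, 1482 and 1426 with saline. Its log2 fold change was 0.12 with a 95% interval from -0.03 to 0.27 and an adjusted p of 0.187 in limma. DNMT3B, TET1 and TET3 had log2 fold changes of 0.42, 0.26 and 0.02, and their groups overlapped. Without saline replicate 1 the value of DNMT3B was 0.0576, and without morphine replicate 3 that of TET1 was 0.0404. The interval of DNMT3B ran from -0.46 to 1.30, and its saline libraries held 77.0, 180.4 and 149.8 normalized counts. That interval holds both 0 and the change of DNMT1, so a change of that size in DNMT3B was not detectable with this spread.

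Of the 7 H3K4 methyltransferases 3 rose and 1 fell, and in each of the 7 the morphine and saline libraries did not overlap. Across all genes tested 48.7% had groups that did not overlap, 24.1% with morphine higher and 24.6% with morphine lower. Among the 57 enzymes it was 54.4%, 42.1% with morphine higher and 12.3% with morphine lower. KMT2B (ENSMMUG00000002381), the catalytic subunit of a COMPASS-like complex, had 2414, 2550 and 2299 normalized counts with morphine and 1819, 1902 and 1866 with saline. It rose by 0.38 ± 0.0598 on the log2 scale, with a limma adjusted p of 0.0116. KMT2D (ENSMMUG00000015718) and KMT2C (ENSMMUG00000007212) encode alternative catalytic subunits of complexes that place H3K4 methylation at enhancers, and they moved in opposite directions. KMT2D had 4105, 4180 and 4034 normalized counts with morphine and 3510, 3376 and 3586 with saline, and rose by 0.23 ± 0.0505 (adjusted p = 0.0256 in limma). KMT2C had 4851, 4625 and 5161 normalized counts with morphine and 6071, 5933 and 5964 with saline, and fell by 0.30 ± 0.0597 (adjusted p = 0.0215 in limma). The ratio of KMT2B to KMT2C reads was 0.497, 0.551 and 0.446 with morphine and 0.300, 0.321 and 0.313 with saline.

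SETD1A (ENSMMUG00000003233), a catalytic subunit of the COMPASS complexes that place most H3K4 trimethylation, had 2734, 2871 and 2968 normalized counts with morphine and 2503, 2220 and 2446 with saline. It rose by 0.26 ± 0.0701 on the log2 scale (adjusted p = 0.0474 in limma). Its relative SETD1B was higher in each morphine library as well, with a log2 fold change of 0.33 and an interval from -0.02 to 0.68, and did not pass (adjusted p = 0.135 in limma). Without morphine replicate 2 its value was 0.22. KMT2A did not pass at 0.17 ± 0.0649 (unadjusted p = 0.0456 in limma). Nor did KMT2E, whose protein is not an active methyltransferase, at -0.14 ± 0.0546 (unadjusted p = 0.0482 in limma). In DESeq2 the adjusted p was 0.0258 for SETD1B, 0.0440 for KMT2A and 0.0398 for KMT2E, against 0.0744, 0.0607 and 0.0546 in edgeR.

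Of the 6 H3K9 methyltransferases 3 rose and 0 fell in limma, and 1 more, EHMT1, had an unadjusted p under 0.05. SETDB1 (ENSMMUG00000023235), which trimethylates H3K9 at transposable elements and, in neurons, at clustered genes, had 1309, 1250 and 1296 normalized counts with morphine and 1017, 965.2 and 912.2 with saline. It rose by 0.41 ± 0.0614 on the log2 scale (adjusted p = 0.00976 in limma). SUV39H1 (ENSMMUG00000019768), which acts at heterochromatin around centromeres, was low, with 146.7, 158.9 and 161.4 normalized counts with morphine and 116.4, 123.3 and 107.6 with saline. It rose by 0.42 ± 0.0754 in limma (adjusted p = 0.0156). That call did not hold in tests that model reads: the adjusted p was 0.0651 in edgeR, 0.146 in DESeq2 and 0.211 in the authors' deposited table, and it was 0.0638 in limma with an intensity trend.

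EHMT2 (ENSMMUG00000011679), which encodes the H3K9 dimethyltransferase G9a, had 10320, 10530 and 10217 normalized counts with morphine and 8741, 8632 and 9094 with saline. It rose by 0.23 ± 0.0491 (adjusted p = 0.0246 in limma). G9a works as a dimer with the product of EHMT1, which had 2863, 2685 and 2642 normalized counts with morphine and 2348, 2456 and 2389 with saline. EHMT1 did not pass (log2 fold change 0.19 ± 0.0557, adjusted p = 0.061 in limma), but it passed in edgeR with an adjusted p of 0.0237. SETDB2 and SUV39H2 had log2 fold changes of -0.06 and 0.19 with overlapping groups, and that of SUV39H2 was 0.33 without morphine replicate 2 and 0.10 without morphine replicate 3.

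Polycomb repressive complex 2, which methylates H3K27, showed 1 fall and 0 rises among 4 core genes in limma, with no other core gene at an unadjusted p under 0.05, and of the 4 edgeR and DESeq2 also called SUZ12 alone. SUZ12 (ENSMMUG00000001116), a structural core subunit, had 1176, 986.8 and 1037 normalized counts with morphine and 1471, 1865 and 1614 with saline. It fell by 0.63 ± 0.117 on the log2 scale (adjusted p = 0.018 in limma), from a mean of 1650 ± 200 to 1067 ± 98.3. EED, the subunit that reads the mark, had 1174, 1064 and 1033 normalized counts with morphine and 1244, 1304 and 1167 with saline, which overlap, and its log2 fold change was -0.18 with an interval from -0.38 to 0.01. The ratio of EED to SUZ12 reads was 0.998, 1.08 and 0.996 with morphine and 0.846, 0.699 and 0.724 with saline. EZH2, the catalytic subunit of dividing cells, had 171.1, 177.0 and 125.9 normalized counts with morphine and 138.1, 170.4 and 157.1 with saline, a log2 fold change of 0.01 with an interval from -0.39 to 0.42. EZH1, the catalytic subunit of non-dividing cells, did not pass (log2 fold change 0.29 ± 0.137), and saline library 3 lay well below the other saline libraries at 5226 against 7166 and 7072. Without it the value was 0.14.

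The H3K36 and H3K79 methyltransferases gave 1 rise of 3. DOT1L (ENSMMUG00000010107), the H3K79 methyltransferase, had 2661, 2732 and 2657 normalized counts with morphine and 2236, 2281 and 2298 with saline. It rose by 0.24 ± 0.0461 on the log2 scale (adjusted p = 0.0193 in limma). In the RefSeq annotation of assembly T2T-MMU8v2.0 the span of DOT1L overlaps that of PLEKHJ1, whose own log2 fold change was 0.05 (adjusted p = 0.613 in limma). SETD2, which trimethylates H3K36 along transcribed genes, had a log2 fold change of 0.05 with an interval from -0.16 to 0.26. NSD1, which places dimethylation there, was uneven, with 3340, 2494 and 2483 normalized counts with morphine and 2839, 4006 and 2456 with saline, and its interval ran from -0.71 to 0.42. Leaving out 1 library gave NSD1 values from -0.30 to 0.0559.

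**Figure D2:**
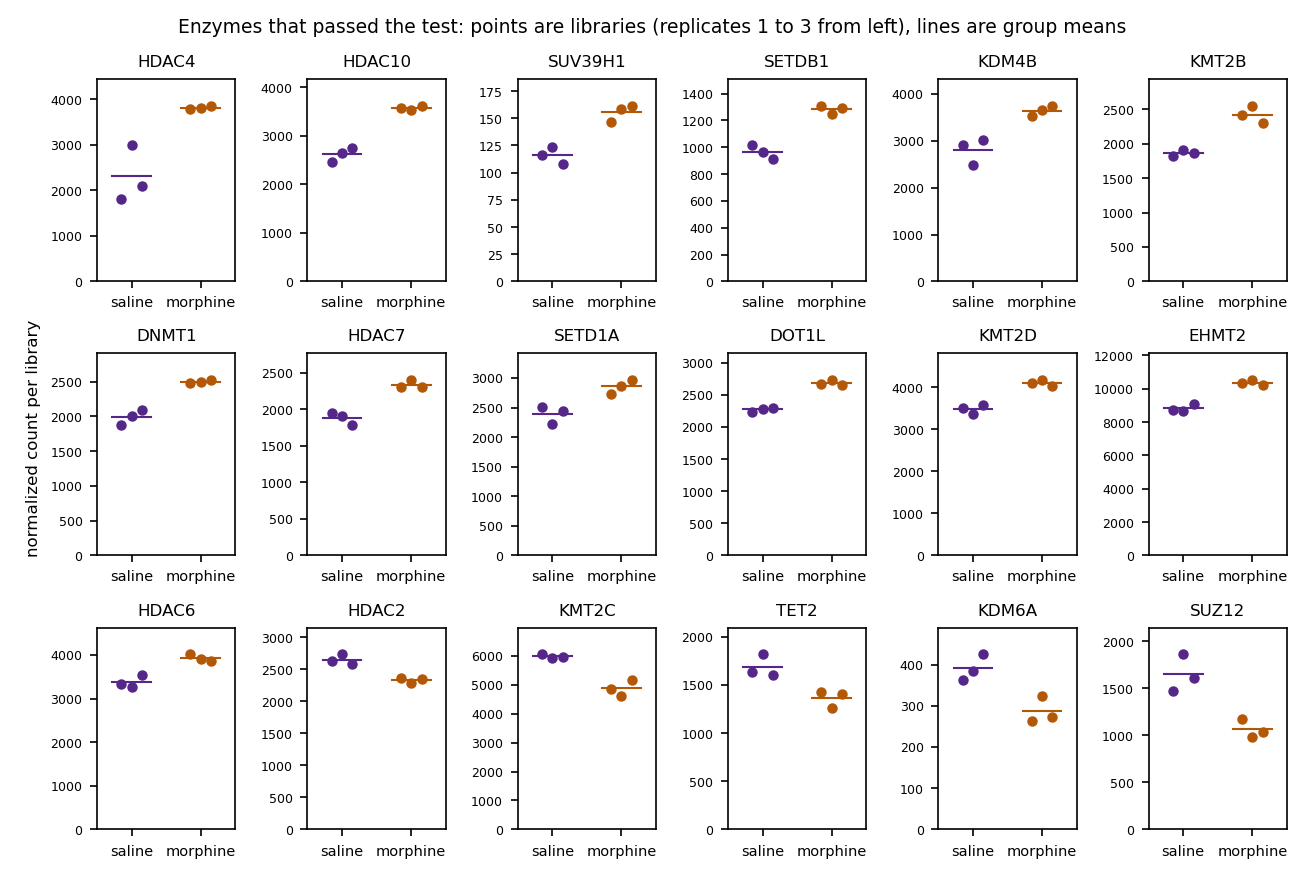
Normalized counts per library (vertical axes start at 0) for the 18 enzymes that passed the test, ordered by log2 fold change from HDAC4 to SUZ12, with points for libraries and lines for group means. In each panel the 3 morphine libraries lie apart from the 3 saline libraries, and the saline libraries of HDAC4 spread widely. The panels were picked by the test on these same libraries, so the separation is no added support. Groups did not overlap in 48.7% of all tested genes.

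Among the 13 histone demethylases 1 rose and 1 fell, and the groups overlapped in 9. Thus 30.8% had groups that did not overlap, against 48.7% of all genes tested. KDM4B (ENSMMUG00000012677), which demethylates H3K9 and H3K36, had 3537, 3650 and 3744 normalized counts with morphine and 2906, 2487 and 3008 with saline. It rose by 0.38 ± 0.0879 on the log2 scale (adjusted p = 0.0303 in limma). Its relatives KDM4A and KDM4C had log2 fold changes of 0.10 and 0.05, and KDM4A had 0.0523 without saline replicate 1. The H3K27 demethylase gene KDM6A (ENSMMUG00000003317), which is X-linked, had 263.6, 324.1 and 273.8 normalized counts with morphine and 362.1, 383.9 and 426.1 with saline. It fell by 0.45 ± 0.109 (adjusted p = 0.0357 in limma). KDM6B, the inducible H3K27 demethylase, lay on the other side, with 950.1, 824.3 and 812.9 normalized counts against 704.5, 726.7 and 750.9, but did not pass (log2 fold change 0.24 ± 0.0796, adjusted p = 0.0782 in limma). The ratio of KDM6B to KDM6A reads was 3.60, 2.54 and 2.97 with morphine and 1.95, 1.89 and 1.76 with saline.

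Of the 5 listed enzymes that can remove H3K4 methylation (KDM1A, KDM2B, KDM5A, KDM5B and KDM5C), 0 passed in limma, although KDM1A had an unadjusted p under 0.05. EdgeR called KDM1A, and DESeq2 called KDM1A and KDM5A. KDM1A, the flavin-dependent H3K4 demethylase of the CoREST complex, had 2783, 2864 and 2598 normalized counts with morphine and 2459, 2326 and 2430 with saline, which do not overlap (log2 fold change 0.19 ± 0.0605, adjusted p = 0.0706 in limma and 0.0275 in edgeR). KDM5A had a log2 fold change of 0.37 with an interval from -0.09 to 0.83, KDM5B of -0.04 and KDM5C of -0.02. KDM5C had 6081 normalized counts in morphine library 1 and 4113 in morphine library 2, with 4970 to 5245 in the saline libraries. KDM2A and KDM2B each had a log2 fold change of 0.10, and leaving out 1 library gave -0.0462 to 0.21 and 0.00724 to 0.19. KDM3A, an H3K9 demethylase, had one of -0.13, and KDM3B one of -0.01.

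Of the 12 deacetylases 4 rose and 1 fell. Both class IIb genes rose. HDAC10 (ENSMMUG00000014101), a deacetylase of polyamines, had 3583, 3527 and 3618 normalized counts with morphine and 2469, 2648 and 2748 with saline. It rose by 0.45 ± 0.0595 on the log2 scale and had the smallest adjusted p of the 57 enzymes, 0.00753 in limma. HDAC6 (ENSMMUG00000016465), which deacetylates tubulin in the cytoplasm, had 4025, 3905 and 3855 normalized counts with morphine and 3332, 3274 and 3534 with saline, and rose by 0.22 ± 0.0547 (adjusted p = 0.0392 in limma).

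In class IIa, the deacetylases that shuttle between nucleus and cytoplasm and bind MEF2 factors, 2 of 4 rose. HDAC4 (ENSMMUG00000006077) had 3778, 3816 and 3858 normalized counts with morphine and 1821, 3005 and 2092 with saline. The morphine libraries were close together and the saline libraries were not, and the log2 fold change of 0.76 had an interval from 0.27 to 1.25 (adjusted p = 0.04 in limma). In the RefSeq annotation HDAC4 overlaps an uncharacterized protein-coding locus. HDAC7 (ENSMMUG00000021655) had 2309, 2404 and 2306 normalized counts with morphine and 1947, 1910 and 1788 with saline, and rose by 0.31 ± 0.0569 (adjusted p = 0.0164 in limma). HDAC5 had 17636, 17266 and 17364 normalized counts with morphine and 16252, 15554 and 16418 with saline, and did not pass (log2 fold change 0.12 ± 0.0489, adjusted p = 0.137 in limma and 0.0141 in edgeR). HDAC9 had 221.1, 389.5 and 265.2 normalized counts with morphine and 1503, 455.1 and 344.9 with saline. Saline replicate 1 stood far above the other 5 libraries, and the log2 fold change of -1.12 (interval from -2.65 to 0.41) was -0.48 without it.

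Class I, which includes HDAC1 and HDAC2 of the SIN3, NuRD and CoREST complexes, gave 1 fall among 3 genes. HDAC2 (ENSMMUG00000008937) had 2359, 2293 and 2358 normalized counts with morphine and 2633, 2744 and 2586 with saline. It fell by 0.18 ± 0.0502 on the log2 scale, with an adjusted p of 0.0488 in limma that rose to 0.057 with upper-quartile scaling and to 0.0509 with a pseudocount of 5. HDAC1, its close paralog, had 546.3, 496.6 and 418.9 normalized counts with morphine and 501.3, 447.0 and 563.2 with saline, and its log2 fold change was -0.05 with an interval from -0.39 to 0.29. HDAC3, a further class I deacetylase, had 1985, 1903 and 1659 normalized counts with morphine and 1643, 1485 and 1585 with saline. HDAC3 did not pass (log2 fold change 0.23 ± 0.0888, adjusted p = 0.112 in limma). Its adjusted p was 0.0511 in edgeR and 0.0170 in DESeq2. The ratio of HDAC10 to HDAC2 reads was 1.52, 1.54 and 1.53 with morphine and 0.938, 0.965 and 1.06 with saline.

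HDAC11, the only class IV deacetylase, had 8925, 8605 and 8442 normalized counts with morphine and 8955, 8428 and 8563 with saline, and its interval ran from -0.13 to 0.14 on the log2 scale. The sirtuins use NAD in place of zinc. SIRT1 had 1304, 1443 and 1405 normalized counts with morphine and 1655, 1763 and 1531 with saline, and did not pass in limma (log2 fold change -0.25 ± 0.0773, adjusted p = 0.0654), whereas its adjusted p was 0.0298 in edgeR. SIRT2, abundant in oligodendrocytes, had 5521, 5127 and 5391 normalized counts with morphine and 4486, 3008 and 4903 with saline, and did not pass (log2 fold change 0.40 ± 0.196, and 0.19 without saline replicate 2).

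**Figure D3:**
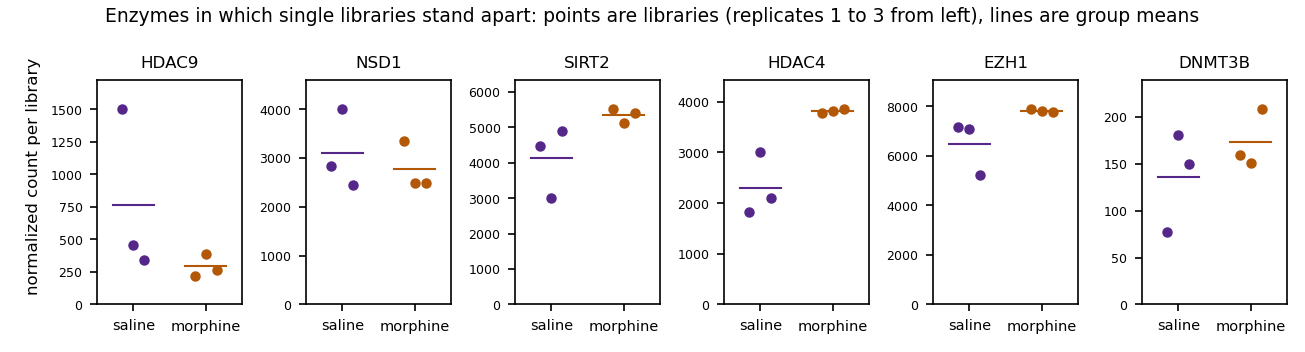
Normalized counts per library for 6 enzymes in which single libraries stand apart, chosen after their values had been seen (points are libraries, lines are group means, axes start at 0). HDAC9 reaches 1503 in saline library 1, NSD1 4006 in saline library 2, and SIRT2 drops to 3008 in saline library 2.

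The acetyltransferases showed 0 calls among 6 genes in limma, with 1 unadjusted p under 0.05 (KAT8). DESeq2 and the authors' deposited table called KAT8, and edgeR called 0 of the 6. KAT8, which acetylates H4K16, had 2039, 1750 and 1709 normalized counts with morphine and 1607, 1598 and 1508 with saline, and a log2 fold change of 0.22 ± 0.0859 (adjusted p = 0.118 in limma and 0.0244 in DESeq2), which was 0.14 without morphine replicate 1. KAT6A had 2102, 2046 and 2083 normalized counts with morphine and 2106, 2108 and 2034 with saline, and its interval ran from -0.12 to 0.12. The intervals of KAT5, the TIP60 enzyme, and of KAT2B, the PCAF enzyme, were similarly narrow, from -0.09 to 0.18 and from -0.19 to 0.09. KAT7 had a log2 fold change of 0.04 and KAT6B of 0.26, where saline library 2 was low at 1346 against 1942 and 1768. Without that library the value of KAT6B was 0.11.

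Single enzymes differed in whether their call was kept when 1 library was left out. The share of all genes called was then 16.2%, 15.3% and 16.6% without morphine replicate 1, 2 or 3 and 18.5%, 17.4% and 19.2% without saline replicate 1, 2 or 3, and the enzymes called were 5, 4, 4, 7, 9 and 8 in the same order. HDAC10, SETDB1 and KMT2B passed in each of the 6 such limma fits, with the highest adjusted p at 0.0323, 0.0393 and 0.0428. DNMT1 was lost without morphine replicate 1, 2 or 3 (adjusted p = 0.0525, 0.0561 and 0.0557), as was HDAC7 (adjusted p = 0.0511, 0.0595 and 0.0502). SUZ12 was lost when saline replicate 3 (adjusted p = 0.0511), morphine replicate 2 (0.0602) or morphine replicate 3 (0.0599) was absent, and SUV39H1 without morphine replicate 2 or 3 (adjusted p = 0.0569 and 0.0539). KDM4B passed only without saline replicate 2 or 3 (adjusted p = 0.0415 and 0.0442) and otherwise reached 0.0635 to 0.0902. A further 4 enzymes passed in 1 fit each: EHMT2 without saline replicate 3 (0.0483), HDAC4 without saline replicate 2 (0.0131), KDM6A without morphine replicate 2 (0.0363) and KMT2C without morphine replicate 3 (0.0351). TET2, KMT2D, SETD1A, DOT1L, HDAC2 and HDAC6 passed in none of the 6, with adjusted p from 0.0512 to 0.136. In these 6 fits no called enzyme changed sign.

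Tests on reads recovered from the table called more enzymes. The edgeR quasi-likelihood test called 21 of the 57, 15 higher and 6 lower, where 34.0% of all genes were called (16.3% higher, 17.7% lower). DESeq2 called 27, 20 higher and 7 lower, where 36.8% of all genes were called (18.0% higher, 18.9% lower). Both shared 17 of the 18 limma calls, all but SUV39H1. The 4 enzymes that edgeR added were EHMT1, HDAC5 and KDM1A, which were higher, and SIRT1, which was lower. The authors' deposited table held 26 of the 57 at an adjusted p under 0.05, 19 higher and 7 lower, where 34.1% of all genes were (16.4% higher, 17.7% lower). With no minimum on the mean, 7 of the 18 calls were left in limma (DNMT1, KMT2B, SETDB1, SUV39H1, SUZ12, HDAC7 and HDAC10), where 12.9% of 23191 genes were called.

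**Figure D4:**
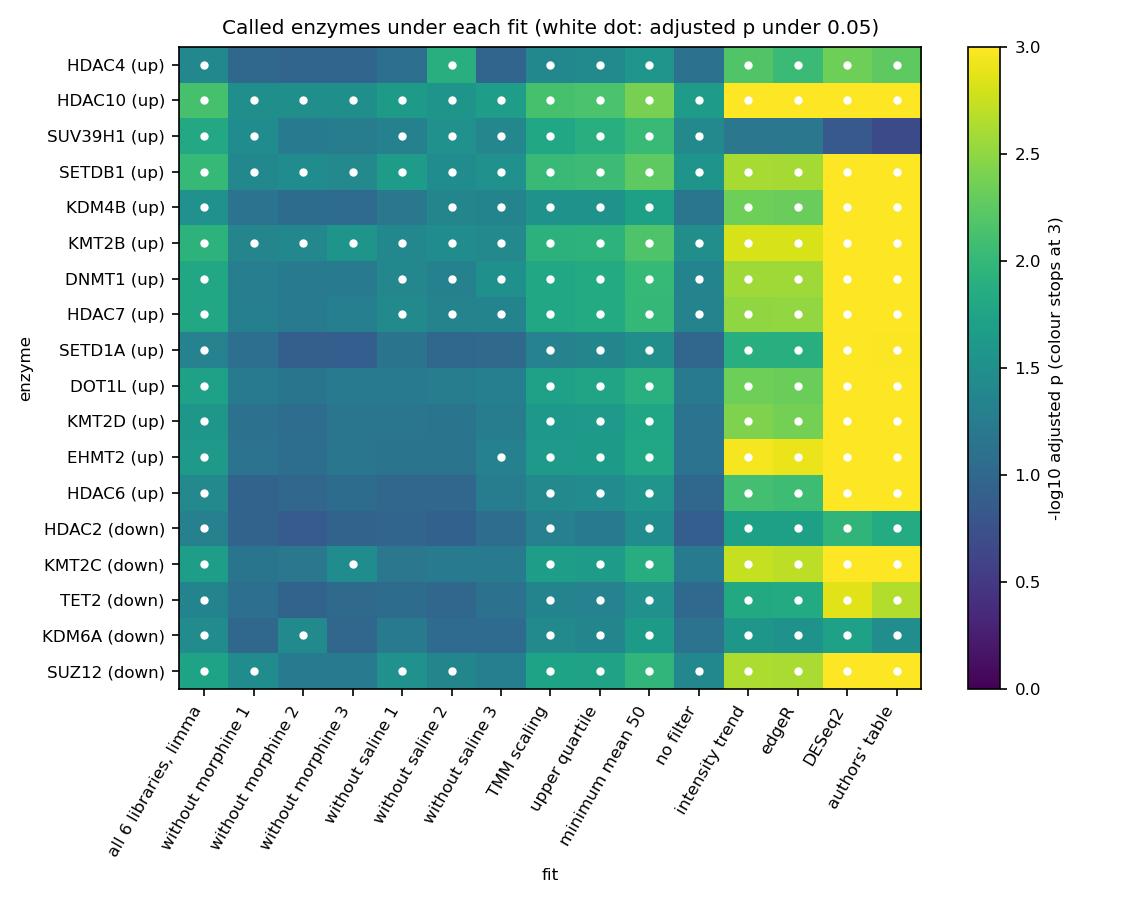
Adjusted p of the 18 called enzymes (rows) under each fit (columns), shown as -log10 with the colour scale ending at 3, without the fits that change the pseudocount or add a replicate block, and a white dot where it is under 0.05. HDAC10, SETDB1 and KMT2B have a dot in each column drawn, and the last 4 columns lack one for SUV39H1 only.

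Partner genes, which are complex subunits, readers and further writers and erasers listed by function, were called at the rate of the table: of 173 tested, 27 rose and 20 fell, which is 27.2%, with a median log2 fold change of 0.01. Among COMPASS subunits 2 of 11 rose and 1 fell. MEN1 (menin), a subunit of the KMT2A and KMT2B complexes, rose by 0.55 and CXXC1, the CpG-binding subunit of the SETD1 complexes, by 0.19, while PSIP1, which tethers KMT2A, fell by 0.39. Of 10 genes of H3K9 methylation and heterochromatin 1 rose and 2 fell. TRIM28, the corepressor that recruits SETDB1, rose by 0.31, and the HUSH complex genes MPHOSPH8 and TASOR fell by 0.47 and 0.36. Of 13 partners and readers of DNA methylation 2 rose and 2 fell: MBD1 rose by 0.19, DNMT3L by 1.42 at a low level of 17.2 against 5.72 normalized counts (adjusted p = 0.0194 in limma, 0.0516 in edgeR and 0.126 in DESeq2), ZBTB38 fell by 0.44 and MBD4 by 0.34. Among 26 Polycomb partners 1 rose and 2 fell, and PHF1, an accessory subunit of the complex, had a log2 fold change of 0.37, CBX6, a reader of H3K27 methylation, -0.32 and EPOP -0.45.

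Of 32 subunits and binding partners of deacetylase complexes 5 rose and 5 fell. The NuRD genes MTA1 and CHD3 rose by 0.43 and 0.25, whereas MIER1 and MIER3, scaffolds that bind HDAC1 and HDAC2, fell by 0.47 and 0.55 and the SIN3 subunit ARID4B by 0.31. Of 35 further acetyltransferases and acetyltransferase complex subunits 8 rose and 4 fell. KANSL3, a subunit of a KAT8 complex, rose by 0.48, BRPF1, a scaffold of the KAT6 enzymes, by 0.36 and EP400 of the TIP60 complex by 0.31. EPC2 and MEAF6, further subunits of KAT complexes, fell by 0.47 and 0.41, and MORF4L1 by 0.26. Of 5 bromodomain reader genes 3 rose, among them BRD9 by 0.31 and BRD3 by 0.26. The sirtuin genes SIRT7 and SIRT4 rose by 0.38 and 0.65 among 5.

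Of 24 further methyltransferases 2 rose and 2 fell: the arginine methyltransferase genes PRMT7 and PRMT1 rose by 0.46 and 0.26, PRMT9 fell by 0.47 and the H4K20 methyltransferase gene KMT5B by 0.26. Of 12 further demethylases 1 rose and 2 fell, at log2 fold changes of 0.36 for RIOX1, -0.66 for KDM7A, an eraser of H3K9 and H3K27 methylation, and -0.48 for JMJD1C, a relative of the KDM3 enzymes. The standard errors of the 47 called partner genes ran from 0.04 to 0.27. With 1 library left out, 16 of the 47 passed in each of the 6 fits, among them MTA1, MIER1, MIER3, KANSL3, EPC2, ZBTB38, PSIP1, MPHOSPH8, PHF1, CBX6 and KDM7A, and 10 passed in none, among them MBD1, CXXC1, PRMT1, KMT5B and RIOX1.

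**Figure D5:**
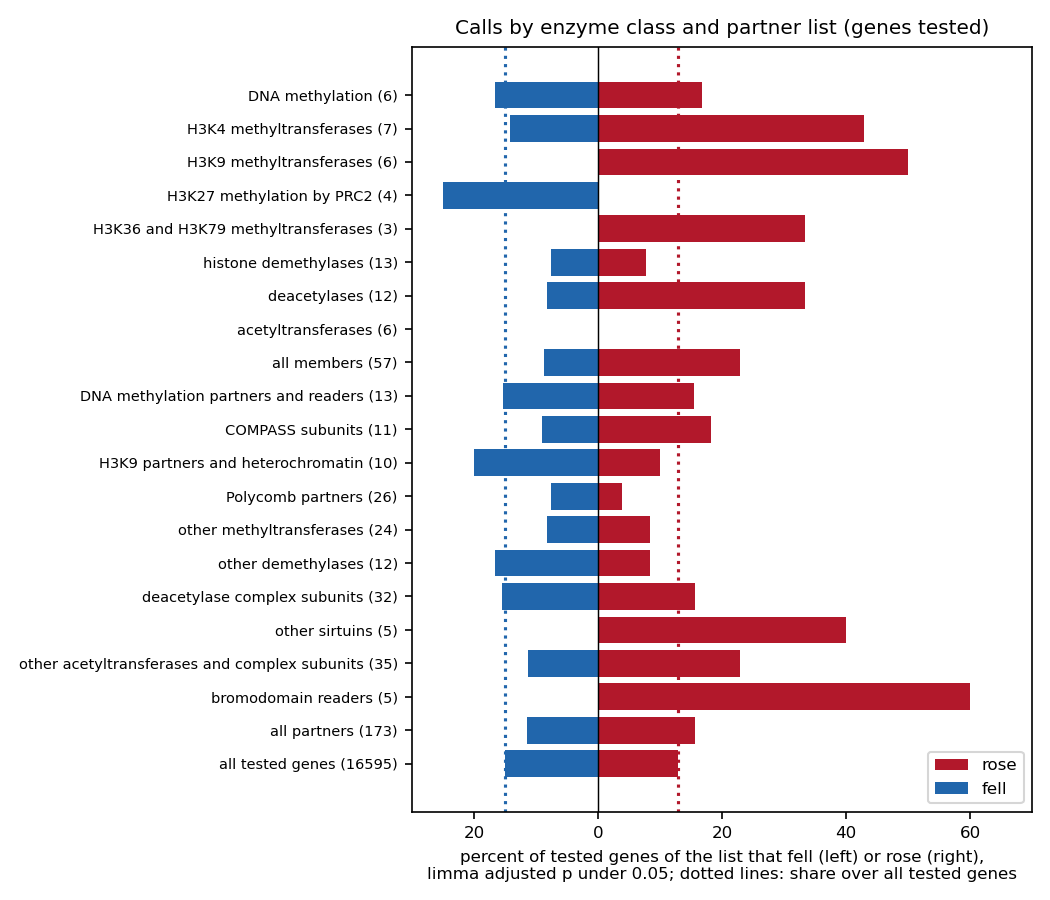
Percent of tested genes that rose (right) or fell (left) in each enzyme class, each list of partner genes and the table as a whole, with the number tested in brackets and dotted lines at the share over all tested genes (12.9% higher, 15.0% lower). The enzymes as a set show 22.8% higher and 8.77% lower, and lists of 3 to 7 genes move by large steps with a single gene.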

How the data were processed

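The members and the gene lists were chosen with earlier results of these data known. Titles gave each library's group and replicate number. Bowtie2 2.1.0, StringTie, the package DESeq2 in version 1.18.1 and the build hg19 are listed, per the submitters' processing notes, with no role for each, while the identifiers are those of rhesus genes, so build, annotation and strand of counting are not given in the sources used here and no coordinates are printed. The authors deposited normalized counts per gene and library, a signal made of reads divided by a size factor, as the values show. The same table deposited by the authors holds their log2 fold changes, a test statistic (a score) and p-values. Symbols matched 15436 of 23191 identifiers (66.6%).

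Genes with a mean of at least 10 (16595) were tested on log2(value + 1) with limma 3.58.1 (R 4.3.3), group as the only term, two-sided, with Benjamini-Hochberg adjustment over all of them. Fold changes on this scale understate changes of low genes. Reads were recovered as whole multiples of the smallest step (100% of values within 0.001 in each library) and tested with edgeR 4.0.16, which called 5636 genes, and DESeq2 1.42.0, which called 6105. Libraries within a group differed by more than sampling noise (mean chi-square of 17.5 to 23.8, where noise gives 1). With fewer monkeys than libraries in a group, some libraries share an animal, and which ones is not given. Each enzyme is named, with library values for those called and for DNMT3A, HDAC2 and EZH2. The library values of other enzymes were added after they had been seen. Of partner genes, up to 3 per direction and list with the smallest adjusted p are named where they passed. Some that meet this rule are not reported here. Alternatives were TMM and upper-quartile scaling, other minimums and pseudocounts, an intensity trend, a block for replicate number, leaving out each library in turn, adjusted p under 0.01, edgeR, DESeq2 and the authors' comparison.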

Additional observations from a re-analysis of the deposited data

How the results depend on the processing

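No called enzyme changed direction under any alternative run. Limma called 13 enzymes as higher and 5 as lower. Leaving out 1 library gave 3 to 8 higher and 0 to 1 lower, from fewer samples in each fit. With no filter there were 6 and 1, at an adjusted p under 0.01 there were 2 and 0, and DESeq2 called 20 higher. Of the 173 partner genes, 27 were higher and 20 lower in limma, 10 and 13 with no filter, 3 and 7 at an adjusted p under 0.01, and 31 were lower in DESeq2. Leaving out 1 library gave 8 to 15 higher and 10 to 14 lower partner genes. Over all genes 4631 were called, 2993 with no filter, 1532 at an adjusted p under 0.01 and 2536 to 3181 without 1 library. A limma fit with the replicate number as a block called 0 enzymes in either direction, with 18 at an unadjusted p under 0.05 and a lowest adjusted p of 0.0501, where edgeR called 21 and DESeq2 27 without the block. It called 4 partner genes as higher and 7 as lower, and 1577 genes in all. Same-numbered libraries did not deviate together from their group means (correlations of -0.0563, -0.00392 and -0.0284). These correlations cannot settle whether the numbers mark a shared day or batch, which the labels do not give. The cause of the shifts in calls between fits was not tested.

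Estimates near 0 in enzymes that did not pass changed sign in 25 of the values recomputed. With upper-quartile scaling the log2 fold change was 0.000842 in KDM3B and 0.0119 in KAT6A. Without 1 library it ran from -0.10 to 0.12 in TET3, -0.0750 to 0.17 in EZH2, -0.30 to 0.0559 in NSD1, -0.00917 to 0.12 in SETD2 and -0.0462 to 0.21 in KDM2A. It ran from -0.0551 to 0.00608 in KDM3B, -0.0657 to 0.00116 in KDM5B, -0.16 to 0.12 in KDM5C, -0.14 to 0.0542 in HDAC1, -0.0206 to 0.0268 in HDAC11, -0.0205 to 0.00707 in KAT6A and -0.0583 to 0.0910 in KAT7.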
